A study of Rattus norvegicus with 138 samples.

Results

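Fibrous tissue gains its strength from what is done to collagen after it is translated, and 10 genes that act at these steps were followed through volumetric muscle loss (VML), the surgical removal of a block of skeletal muscle too large to regrow. The genes are Lox, Loxl1, Loxl2, Loxl3, Plod1, Plod2, P4ha1, P4ha3, Serpinh1 and Bmp1. They were taken by symbol and make up 10 of the 16181 symbols in the table. All 10 passed the filter on low values, a group mean above 1 TPM in at least 1 group (TPM is a transcript level scaled for length and to a fixed total per library), as did 11328 symbols in all.

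Inside the cell, prolyl 4-hydroxylases (alpha subunits P4ha1 and P4ha3) hydroxylate proline so that the collagen triple helix is stable at body temperature, and lysyl hydroxylases (Plod1, Plod2) hydroxylate lysine. Plod2 acts on the telopeptides at the ends of the chains, where its product sets the type of crosslink, and Serpinh1 encodes HSP47, a chaperone that binds the folded helix. Outside the cell, Bmp1 cuts off the C-propeptide so that fibrils can form, and it also cuts the proenzyme of Lox. Lysyl oxidase (Lox) and its relatives Loxl1, Loxl2 and Loxl3 then oxidize lysine and hydroxylysine, the reaction from which crosslinks between molecules arise.

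All animals were adult male Lewis rats, and the tissue was the whole tibialis anterior (TA) muscle. Control muscles were the left and right TA of 2 rats at day 0, labelled Sham and described by the study as unoperated. Operated rats had a full-thickness punch defect in one TA, and the opposite TA was the contralateral muscle. The defect was left without repair (NoRepair) or was filled with a minced muscle graft (MMG) cut from the animal's own excised tissue, rats were labelled Run or NoRun, and muscles were taken at 3, 7, 14 or 28 days post injury (DPI). After 13 libraries with fewer than 7000 symbols above 1 TPM were dropped, 114 muscles of 78 rats in 31 groups remained. They held 7866 to 10948 symbols above 1 TPM. The control group had 4 muscles. The non-repaired, non-running injured groups had 3, 8, 4 and 4 muscles at 3, 7, 14 and 28 DPI, and their contralateral groups had 2, 4, 2 and 2. All control rats carry one series of rat numbers and all operated rats another, so injury and series cannot be told apart in a comparison with control alone. The contralateral muscles carry the same numbering as the injured ones.

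Transcripts of 10 skeletal muscle fiber genes, which mark skeletal muscle in general and do not tell TA from another muscle, made up 22.6% to 29% of all TPM in control muscle. In non-repaired, non-running injured muscle they made up 4.57% to 6.17% at 3 DPI, 6.75% to 14.4% at 7 DPI and 18.5% to 21.4% at 28 DPI. Control replicate 4, the right muscle of the second control rat, stood apart. It had the fewest symbols above 1 TPM of any muscle kept (7866) and the lowest control value for all members except P4ha1 and P4ha3, the latter being at 0 in 3 control muscles.

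Promoter sequence was at hand for 7 of the 10 members (RefSeq, GRCr8): Loxl1, Loxl3, Plod1, Plod2, P4ha1, P4ha3 and Serpinh1. The 250 bases before the start of Plod2 and P4ha1 are shown because both genes are textbook targets of the hypoxia-inducible factors yet had different time courses here, and those of Serpinh1 because it is a heat shock gene. Capitals mark the hypoxia response core, ACGTG or GCGTG on either strand, in the first pair (Plod2, chr8:101964068-101964317, plus strand; P4ha1, chr20:27844796-27845045, plus strand). In Serpinh1 (chr1:163062977-163063226, minus strand) they mark the inverted heat shock unit GAANNTTC.
Plod2: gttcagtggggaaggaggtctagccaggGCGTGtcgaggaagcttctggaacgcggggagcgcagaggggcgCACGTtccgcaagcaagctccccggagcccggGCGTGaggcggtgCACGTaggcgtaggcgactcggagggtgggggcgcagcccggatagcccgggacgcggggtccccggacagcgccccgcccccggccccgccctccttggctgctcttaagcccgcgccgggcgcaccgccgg
P4ha1: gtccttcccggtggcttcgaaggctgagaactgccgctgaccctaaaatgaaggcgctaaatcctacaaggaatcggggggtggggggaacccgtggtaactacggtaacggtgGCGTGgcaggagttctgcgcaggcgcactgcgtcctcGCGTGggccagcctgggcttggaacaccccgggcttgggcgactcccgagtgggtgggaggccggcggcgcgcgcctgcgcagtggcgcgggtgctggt
Serpinh1: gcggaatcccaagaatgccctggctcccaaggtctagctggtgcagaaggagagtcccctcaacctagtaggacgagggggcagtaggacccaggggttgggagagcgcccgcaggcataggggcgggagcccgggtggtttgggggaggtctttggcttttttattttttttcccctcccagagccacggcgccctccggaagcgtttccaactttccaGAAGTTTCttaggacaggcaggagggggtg

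The hypoxia core occurred 4 times in the Plod2 window, 2 of them as ACGTG, and 2 times in that of P4ha1, none of them as ACGTG. It was present in 4 of the 7 windows, against 36.7% of 33469 RefSeq windows of the same length, and ACGTG was in 1 of the 7, against 16.6% of all windows. GAANNTTC was found in the Serpinh1 window and in 3 of the 7, against 7.23% of all. Such matches describe the letters and do not show that a factor binds.

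To ask how the injury changed collagen processing, non-repaired injured muscle of non-running rats was compared with control muscle by day. Of the 10 members, 10 rose at 3 DPI and 9 at 7, 14 and 28 DPI. Of all tested genes, 48.3%, 45.6%, 25% and 21.1% were called higher on those days, so that at 3 and 7 DPI a large part of all genes was called as well. A call requires a Benjamini-Hochberg adjusted p under 0.05 over all tested genes (limma on log2(TPM + 1)) and a log2 fold change beyond 1. The members' median log2 fold change was 3.81, 4.39, 3.32 and 2.21, beside 0.96, 0.92, 0.53 and 0.52 over all genes. Rescaling TPM by median-of-ratios size factors lowered the median of all genes to 0.31, 0.32, 0.20 and 0.20 and left 9, 9, 8 and 8 members called. Without control replicate 4 the counts were 10, 9, 9 and 8. Every injured muscle was above every control muscle for 10, 9, 9 and 9 members on the 4 days, as it was for 69.9%, 66%, 58.9% and 60.2% of all genes. In a bulk sample, fewer cells of a type and less RNA per cell cannot be told apart.

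**Figure D1:**
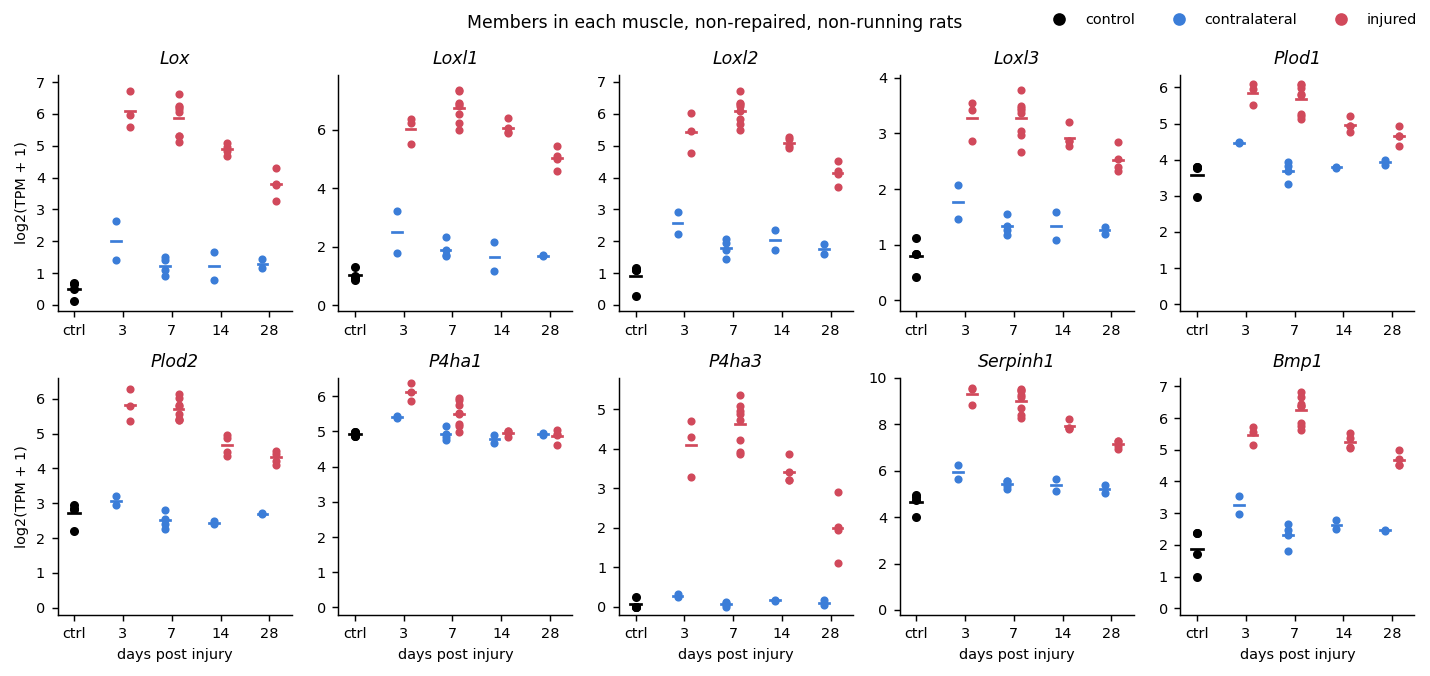
Level of each member, as log2(TPM + 1), in every control muscle (black) and in contralateral (blue) and injured (red) muscles of non-repaired, non-running rats by day post injury; bars are group means. Injured muscles lie above all control muscles for every member except P4ha1, which overlaps control at 7, 14 and 28 DPI.

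On the log2(TPM + 1) scale, Loxl1, Lox and Loxl2 had the largest fold changes of the 10 at 7 DPI. Lox, whose product crosslinks collagen and elastin, was listed at 0.41, 0.61, 0.59 and 0.08 TPM in the control muscles. The 3 injured muscles at 3 DPI held 62.2, 104 and 47.2 TPM, and the 8 muscles at 7 DPI ranged from 34.1 to 97.3 TPM with a median of 67.9. Values then declined to 27.7, 24.7, 32.8 and 29.9 TPM at 14 DPI and to 12.9, 12.7, 8.65 and 18.7 TPM at 28 DPI. No injured muscle on any day overlapped control. The log2 fold change was 5.60 (SE 0.35, adjusted p = 1.74e-26, limma) at 3 DPI and 3.29 (SE 0.32, adjusted p = 6.74e-15) at 28 DPI.

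Loxl1, which is known for its part in elastic fiber assembly, reached its highest mean later. Its control values were 1.03, 0.9, 1.49 and 0.84 TPM. At 3 DPI it stood at 81.9, 73.3 and 45 TPM, and at 7 DPI at 62.4 to 164 TPM with a median of 114. All injured values were above all control values, and the log2 fold change was 5.0 at 3 DPI, 5.72 at 7 DPI (SE 0.24, adjusted p = 4.08e-37, limma) and 4.0 at 28 DPI. On the last day the muscles still held 31.2, 33.1, 23.4 and 42.3 TPM.

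Loxl2, active on basement membrane collagen, went from 0.21 to 1.23 TPM in control muscle to 43.8 to 104 TPM at 7 DPI, a log2 fold change of 5.18 (SE 0.23, adjusted p = 4.07e-35, limma). It was at 12 to 22 TPM at 28 DPI. Loxl3 rose less, from 0.34 to 1.17 TPM to 5.35 to 12.8 TPM at 7 DPI, with log2 fold changes of 2.48 at 3 and at 7 DPI and 1.73 at 28 DPI. Neither gene overlapped control on any day.

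The make-up of the family differed between injured and control muscle. As a share of the summed TPM of Lox, Loxl1, Loxl2, Loxl3 and Loxl4, Lox took 11.1% ± 4.42 (SD, n = 4) in control muscle, 36% ± 4.64 (n = 3) at 3 DPI and 18.8% ± 1.37 (n = 4) at 28 DPI. Loxl1 had 34.3% ± 13.9 (n = 4) in control muscle, 34.8% ± 6.20 (n = 3) at 3 DPI and 46.6% ± 0.88 (n = 4) at 28 DPI. Loxl3 fell from 22% ± 1.58 (n = 4) in control muscle to 3.56% ± 0.33 (n = 8) at 7 DPI, without overlap, as the summed family level went from 3.47 ± 1.39 to 256 ± 78.9 TPM. These shares are set against control alone. In contralateral muscle of non-repaired, non-running rats at 28 DPI (n = 2), Lox, Loxl1, Loxl2 and Loxl3 averaged 1.47, 2.255, 2.395 and 1.39 TPM. Injured muscle that day (n = 4) averaged 13.2, 32.5, 17 and 4.84 TPM.

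The log2 ratio of Lox to Loxl1, each as TPM + 1, was -0.55 ± 0.23 (SD, n = 4) in control muscle. It was 0.06 ± 0.44 (n = 3) at 3 DPI, -0.88 ± 0.24 (n = 8) at 7 DPI, -1.18 ± 0.12 (n = 4) at 14 DPI and -1.25 ± 0.09 (n = 4) at 28 DPI. The difference from control passed at 14 and 28 DPI (-0.64 and -0.71, each adjusted p = 0.0409, two-sided exact permutation test over muscles, adjusted over 20 tests) and not at 3 DPI (0.60, adjusted p = 0.114) or 7 DPI (-0.33, adjusted p = 0.0592). With a pseudocount of 0.1 TPM the differences were 1.365, 0.42, 0.10 and -0.003 at 3, 7, 14 and 28 DPI, and none passed. The sign of this ratio against control thus rests on the pseudocount at 7 and 14 DPI, and its size does so on every day. Ratios were also set against contralateral muscle of non-running rats of both repair arms (4, 10, 4 and 4 muscles at 3, 7, 14 and 28 DPI), with the muscles of one rat treated as unpaired. Against these the ratio with TPM + 1 was lower by 0.35, 0.85 and 0.80 log2 at 7, 14 and 28 DPI (each adjusted p = 0.0381, exact permutation test). The difference at 3 DPI was 0.69 (adjusted p = 0.18). At 7 DPI mean Lox and Loxl1 were 1.37 and 2.82 TPM in contralateral muscle of non-repaired rats and 1.64 and 2.46 TPM in that of grafted rats. These differences too depend on the pseudocount, and 0.1 TPM was not tried with this reference.

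**Figure D2:**
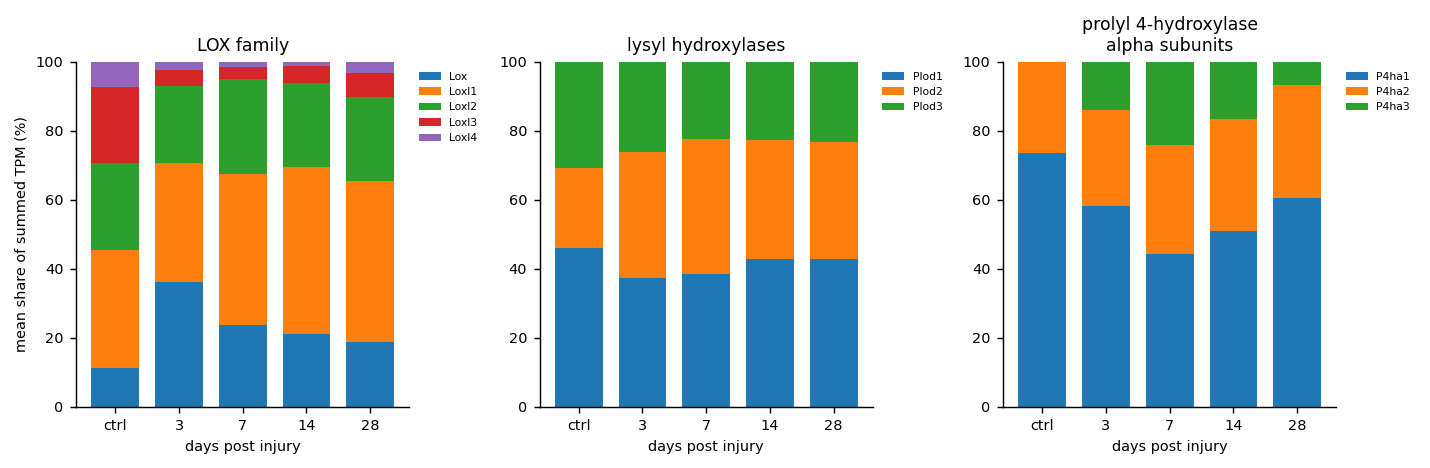
Mean share of summed TPM (%) taken by each member of the LOX family, the lysyl hydroxylases and the prolyl 4-hydroxylase alpha subunits in control muscle (ctrl) and non-repaired, non-running injured muscle by day. Lox has its largest share at 3 DPI (36%), Plod2 at 7 DPI (39.1%) and P4ha3 at 7 DPI (24%); Loxl4, Plod3 and P4ha2 are family relatives outside the 10 genes.

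Both lysyl hydroxylases rose, Plod2 more than Plod1. Plod2 was at 6.2, 6.68, 6.18 and 3.61 TPM in control muscle. At 3 DPI the injured muscles held 54.6, 76.8 and 39.9 TPM, at 7 DPI 40.8 to 68.9 TPM (median 50.7), at 14 DPI 19.4, 21.3, 28.1 and 30.3 TPM, and at 28 DPI 16.3, 17.7, 20.5 and 21.7 TPM. The lowest injured value of any day was above the highest control value. Its log2 fold change went from 3.10 (SE 0.22, adjusted p = 2.83e-23, limma) at 3 DPI to 1.61 at 28 DPI.

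Plod1 started higher, at 13, 13, 12.7 and 6.76 TPM in control muscle, and stood at 67.1, 61.5 and 44.6 TPM at 3 DPI and 24.2, 24.1, 19.8 and 29.3 TPM at 28 DPI. The groups did not overlap. Its log2 fold change of 2.27 at 3 DPI (adjusted p = 3.11e-17, limma) declined to 1.38 at 14 DPI and 1.06 at 28 DPI. With size factors the last 2 were 0.95 and 0.63, under the fold limit.

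The log2 ratio of Plod2 to Plod1 rose from -0.88 ± 0.09 (SD, n = 4) in control muscle to 0.03 ± 0.18 (n = 8) at 7 DPI, and was -0.33 ± 0.26 (n = 4) at 28 DPI. The difference from control was 0.83 at 3 DPI, 0.90 at 7 DPI (adjusted p = 0.0202, exact permutation test), 0.58 at 14 DPI and 0.54 at 28 DPI (both adjusted p = 0.0409). With a pseudocount of 0.1 TPM the last 2 were 0.67 and 0.63, at the smallest exact p that 4 against 4 muscles allow (0.0286), which came to an adjusted p of 0.0636 over the 20 tests. With 1 muscle left out, the differences ran from 0.87 to 0.95 at 7 DPI, 0.47 to 0.63 at 14 DPI and 0.42 to 0.61 at 28 DPI. For 3 against 4 muscles the smallest two-sided p is 0.0571, so no ratio could pass at 3 DPI, or at 14 and 28 DPI with a muscle left out. For 8 against 3 it is 0.0121, which at 7 DPI without any one control muscle was reached and came to an adjusted p of 0.0605 (exact permutation test). Against the contralateral muscles of both repair arms the same ratio was higher by 1.30, 1.19, 0.98 and 0.80 log2, with adjusted p = 0.0634, 0.000228, 0.0381 and 0.0381 (exact permutation test). Of the summed TPM of Plod1, Plod2 and Plod3, Plod2 had 23.1% ± 0.84 (n = 4) in control muscle and 39.1% ± 2.32 (n = 8) at 7 DPI.

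The prolyl 4-hydroxylase alpha subunits parted. P4ha3 was listed at 0 in 3 control muscles and at 0.19 TPM in the other. It stood at 24.8, 18.5 and 8.66 TPM at 3 DPI, 13.4 to 40.2 TPM (median 27.1) at 7 DPI, 8.16, 9.55, 13.7 and 8.16 TPM at 14 DPI and 2.85, 3.03, 1.15 and 6.44 TPM at 28 DPI. All injured muscles were above control. Against contralateral muscle, where it was at 0 to 0.24 TPM, the log2 difference on the TPM + 1 scale was 4.56 at 7 DPI (SE 0.32, adjusted p = 1.18e-23, limma) and 1.89 at 28 DPI (adjusted p = 0.000377).

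P4ha1, the isoform with the highest level in resting muscle, was at 28.2 to 30.7 TPM in control muscle. It stood at 68, 82.3 and 56.8 TPM at 3 DPI, above all control values, and at 30.4 to 60.2 TPM at 7 DPI, where it overlapped control. The log2 fold change was 1.18 (SE 0.18, adjusted p = 8.4e-09, limma) at 3 DPI and 0.56 (95% interval 0.27 to 0.85, adjusted p = 0.000286) at 7 DPI, below the fold limit. At 14 and 28 DPI it was 0.02 (interval -0.32 to 0.35) and -0.07 (-0.40 to 0.27). These values depend on the scaling. With size factors they were 0.32 (adjusted p = 0.104), -0.23 (adjusted p = 0.149), -0.44 (adjusted p = 0.0196) and -0.54 (adjusted p = 0.00507) at 3, 7, 14 and 28 DPI.

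Accordingly the log2 ratio of P4ha3 to P4ha1, in which library scaling cancels except for the pseudocount, rose from -4.87 ± 0.17 (SD, n = 4) to -0.87 ± 0.33 (n = 8) at 7 DPI. The differences from control were 2.84, 4.0, 3.34 and 1.99 at 3, 7, 14 and 28 DPI, with adjusted p = 0.0601, 0.0202, 0.0409 and 0.0409 (exact permutation test). Since P4ha3 was at 0 in 3 of the 4 control muscles, these sizes depend on the pseudocount. With 0.1 TPM they were 5.72, 6.93, 6.21 and 4.57, those at 14 and 28 DPI again at the smallest p allowed and an adjusted p of 0.0636 (exact permutation test). With 1 muscle left out, too few for a call, the differences at 14 and 28 DPI were 3.2 to 3.42 and 1.74 to 2.21. As a share of the 3 alpha subunits, P4ha1 fell from 73.4% ± 5.78 (n = 4) in control muscle to 44.3% ± 3.46 (n = 8) at 7 DPI and was back at 60.6% ± 2.20 (n = 4) at 28 DPI, still below every control muscle.

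**Figure D3:**
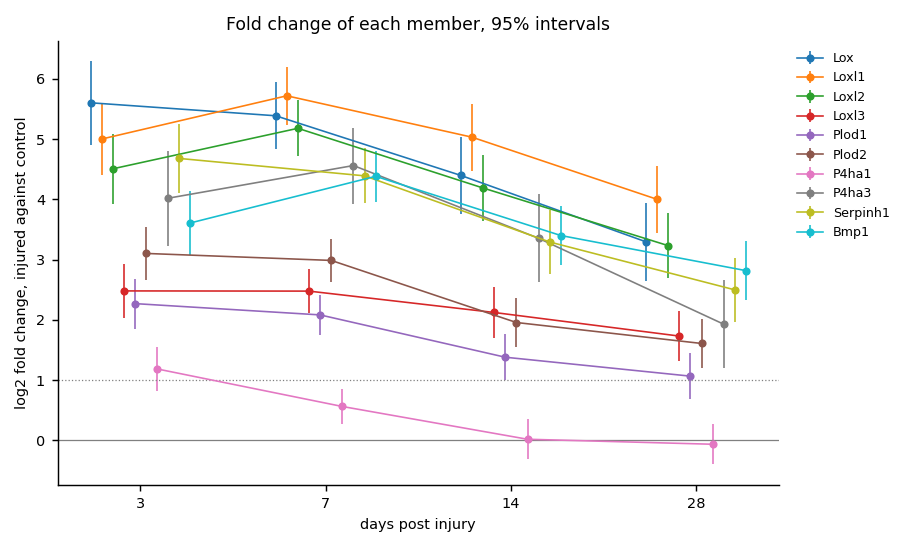
Log2 fold change of each member in non-repaired, non-running injured muscle against control at 3, 7, 14 and 28 DPI, on the log2(TPM + 1) scale; bars are 95% intervals of the limma model and the dotted line is the limit of 1 used for a call. Lox, Serpinh1, Plod1, Plod2 and P4ha1 are highest at 3 DPI, Loxl1, Loxl2, Bmp1 and P4ha3 at 7 DPI.

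On the TPM scale, which corrects for transcript length, Serpinh1 had the highest level of the 10 in injured muscle. From 26, 27.9, 29.8 and 15 TPM in control muscle it went to 746, 757 and 457 TPM at 3 DPI and 307 to 741 TPM (median 591) at 7 DPI. It then stood at 223, 227, 301 and 228 TPM at 14 DPI and at 153, 132, 120 and 156 TPM at 28 DPI. No injured muscle came near the control values, and the log2 fold change was 4.68 (SE 0.29, adjusted p = 5.3e-27, limma) at 3 DPI and 2.50 at 28 DPI.

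Bmp1 was at 2.25, 4.21, 4.2 and 0.97 TPM in control muscle, 45.9, 51.6 and 34.2 TPM at 3 DPI and 48.3 to 111 TPM (median 82.6) at 7 DPI. It was still at 21.7, 25, 22 and 30.5 TPM at 28 DPI. The groups did not overlap, and the log2 fold change was 3.61, 4.38 (SE 0.21, adjusted p = 2.01e-33, limma), 3.40 and 2.82 on the 4 days.

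Col1a1, the main chain of type I collagen, gives a scale for these levels. It went from 17.6 ± 4.40 TPM (SD, n = 4) in control muscle to 1716 ± 660 (n = 3), 3265 ± 1329 (n = 8), 1512 ± 290 (n = 4) and 717 ± 234 TPM (n = 4) at 3, 7, 14 and 28 DPI. The log2 ratio of Serpinh1 to Col1a1 fell from 0.45 ± 0.10 (n = 4) in control muscle to -1.34 ± 0.24 (n = 3) at 3 DPI and -2.54 ± 0.20 (n = 8) at 7 DPI. The differences from control were -1.79, -2.99, -3.07 and -2.75 (adjusted p = 0.0601, 0.0202, 0.0409 and 0.0409, exact permutation test). With a pseudocount of 0.1 TPM they were -1.81, -3.01, -3.09 and -2.78, of which that at 7 DPI passed (adjusted p = 0.0269, exact permutation test), those at 14 and 28 DPI being at the smallest p allowed. Against the contralateral muscles of both repair arms, the ratio differed by 0.11 at 3 DPI (adjusted p = 0.8, exact permutation test) and by -1.64, -1.48 and -2.31 on the later days.

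For Lox to Col1a1 the differences from control were -0.87, -1.99, -1.96 and -1.96 log2 (adjusted p = 0.0601, 0.0202, 0.0409 and 0.0409, exact permutation test). With a pseudocount of 0.1 TPM the 3 DPI difference changed sign, to 0.65, and the later ones shrank to -0.48, -0.47 and -0.52, and none passed. Against the contralateral muscles of both repair arms they were 0.78, -0.55, -0.56 and -1.66, of which those after 3 DPI passed at adjusted p = 0.000228, 0.0381 and 0.0381 (exact permutation test). With TPM + 1, the ratio at 7, 14 and 28 DPI was thus below that of either reference muscle. Its sign at 3 DPI differed between references and between pseudocounts. At 7 DPI mean Lox was 1.37 TPM in contralateral muscle of non-repaired rats (n = 4) and 1.64 TPM in that of grafted rats (n = 6). At levels this low the difference from contralateral muscle depends on the pseudocount, and whether its sign holds at 0.1 TPM was not tested.

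**Figure D4:**
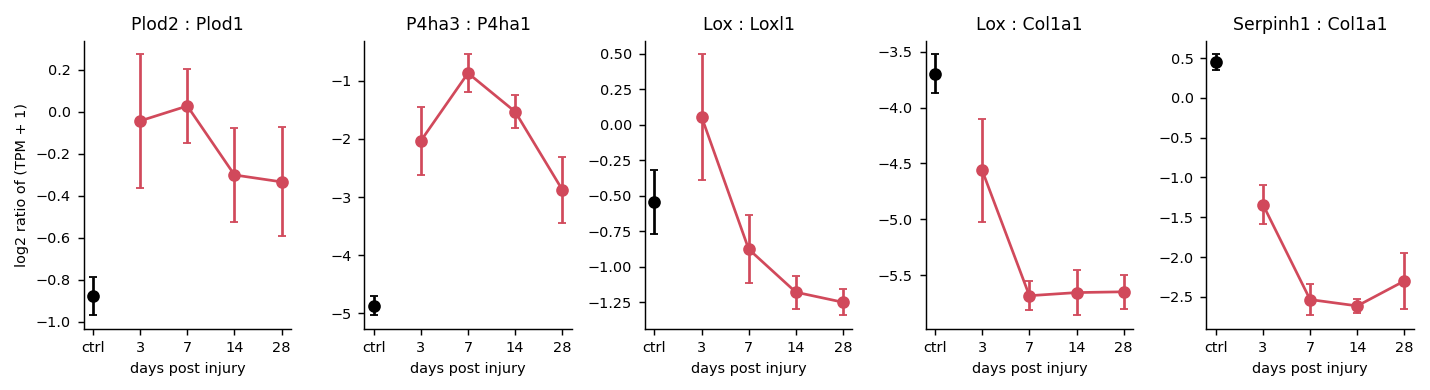
Mean log2 ratio of (TPM + 1) with SD bars for 5 gene pairs in control muscle (ctrl, black) and non-repaired, non-running injured muscle (red) by day. Plod2 to Plod1 and P4ha3 to P4ha1 are above control throughout, highest at 7 DPI, and both ratios to Col1a1 are below control throughout.

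Levels between successive days of non-repaired injured muscle were tested as well. Day and rat number went together in these groups. The 3 DPI rats were numbered 10 to 18 and the 28 DPI rats 73 to 82, the 14 DPI rats all had much higher numbers, and at 7 DPI 4 of 8 rats were numbered up to 24 and 4 had such high numbers. A difference between days thus cannot be told apart from one between ranges of rat number except where a range is shared, and the 7 DPI muscles differed between ranges, with 680 ± 74.4 TPM of Serpinh1 (SD, n = 4) in the low and 416 ± 137 (n = 4) in the high numbers. From 3 to 7 DPI 0 members were called (7.34% of all genes were called in either direction), and 4 had an adjusted p under 0.05 alone (38.7% of all genes), of which Loxl1, Loxl2 and Bmp1 were higher by 0.72, 0.67 and 0.77 log2 and P4ha1 lower by 0.62. With the low-numbered 7 DPI muscles alone, 2 members were called (618 of 11339 genes), Loxl1 and Bmp1, higher by 1.07 and 1.11 log2. From 7 to 14 DPI 3 members fell (6.82% of all genes), Plod2 by 1.03 log2, P4ha3 by 1.21 and Serpinh1 by 1.1, and 9 had an adjusted p under 0.05 alone (71% of all genes), Loxl3 being the exception. With the high-numbered 7 DPI muscles alone, the range that the 14 DPI rats share, 0 members were called (309 of 11329 genes): Plod2 was lower by 0.78 log2 (adjusted p = 0.00108, limma), P4ha3 by 0.80 (adjusted p = 0.0536) and Serpinh1 by 0.72 (adjusted p = 0.0153). With size factors, or with all libraries kept, 0 members were called as well. Between 14 and 28 DPI 2 members fell (0.459% of all genes), Loxl1 by 1.03 log2 (adjusted p = 0.0395, limma) and P4ha3 by 1.43 (adjusted p = 0.026). Here the count was 1 with a pseudocount of 0.1 TPM and 0 with all libraries kept. Several members lay near the fold limit: with 1 muscle left out, the counts ran from 2 to 6 for 14 against 7 DPI and from 0 to 4 for 28 against 14 DPI. The former was 6 without any one of replicates 9, 10 and 11 at 7 DPI or 3 and 4 at 14 DPI, and the latter changed whichever of its 8 muscles was left out.

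Within the operated rats, the injured muscle was compared with the contralateral one. In the non-repaired rats 9, 9, 9 and 8 members rose at 3, 7, 14 and 28 DPI, against 32.3%, 45.3%, 20.9% and 13.1% of all genes. At 7 DPI all 4 contralateral muscles kept came from rats of the high numbers, and with the 4 injured muscles of those numbers alone 9 members were again called, by 1.66 log2 (Plod1) to 4.5 (Loxl1). P4ha1 was not called on any day, with log2 differences of 0.70, 0.58, 0.17 and -0.06, and Plod1 was not called at 28 DPI (0.72, adjusted p = 0.00906, limma). In rats with a graft the counts were 10, 9, 9 and 8, against 37.2%, 42.9%, 25.6% and 18.8% of all genes, and P4ha1 was called at 3 DPI only (1.08, adjusted p = 3.65e-07, limma). Of 22 non-running rats with both muscles measured, all 22 had the higher value in the injured muscle for 9 members, against 53.9% of all genes, and 20 did for P4ha1 on the TPM scale, whose bearing on the sign for P4ha1 is given above. The median difference within rats was 4.16 log2 for Lox, 2.84 for Plod2, 3.32 for Serpinh1 and 0.39 for P4ha1.

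Whether the contralateral muscle itself differed from control was asked next. At 3 DPI 5 members rose (6.37% of all genes): Lox, Loxl1, Loxl2, Serpinh1 and Bmp1, by 1.53, 1.48, 1.67, 1.33 and 1.38 log2. The group was 2 muscles, of which one held 5.17 TPM of Lox and 75.8 TPM of Serpinh1 and the other 1.67 and 49.8 TPM, both above every control value. Without the first muscle or with all libraries kept 1 member was called, and with only the compared groups in the model 0. At 7, 14 and 28 DPI 0, 1 and 0 members were called (0.636%, 0.653% and 0.185% of all genes), the 1 being Loxl2 (1.13 log2, adjusted p = 0.0444, limma). It was not called without either contralateral muscle or without control replicate 1 or 4. With a pseudocount of 0.1 TPM the counts were 3, 3 and 2 (369, 464 and 245 of 11328 genes), and with size factors 2 at 7 DPI (131 of 11211 genes). At an unadjusted p under 0.05 there were 8, 5, 4 and 3 members on the 4 days, against 60.4%, 19.8%, 14.7% and 11.6% of all genes. Plod2 was within 0.36 log2 of control on every day (at 3 DPI 0.36, interval -0.14 to 0.85).

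To ask whether the graft changed these genes, grafted and non-repaired injured muscles of non-running rats were compared. No member was called at 3, 7, 14 or 28 DPI (0 of 10 on each day, against 0.00883%, 0.0883%, 0.0265% and 0% of all genes). At an unadjusted p under 0.05 there were 1, 5, 1 and 0 members, against 17.3%, 27%, 5.23% and 1.24% of all genes (limma). With an adjusted p alone, 2 members were higher at 7 DPI (8.19% of all genes passed in either direction), Plod2 by 0.53 log2 (95% interval 0.24 to 0.82, adjusted p = 0.0141, limma) and P4ha1 by 0.37 (0.14 to 0.61, adjusted p = 0.0371). The 8 grafted muscles held 60.5 to 86.6 TPM of Plod2 (median 74.4) and the 8 non-repaired ones 40.8 to 68.9 TPM (median 50.7), so the groups overlapped. In the same comparison 8 of 8 macrophage and leukocyte markers had an unadjusted p under 0.05, beside 27% of all genes, with a median difference of 0.68 log2. So did 7 of 17 other collagen processing enzymes, 6 of 12 hypoxia-induced genes and 1 of 8 fibroblast markers. The count was 1 of 10 for muscle fiber markers and 1 of 5 for tendon and cartilage markers. It was 0 of 8 for fibrillar collagens and 0 of 6 for endothelial markers.

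The grafted 7 DPI group likewise drew 4 rats from each range of rat number, a division which the labels do not explain. Non-repaired muscles had 78.8 ± 12.6 TPM of Lox (SD, n = 4) in the low range and 44.3 ± 14.6 (n = 4) in the high one. Grafted muscles had 89.2 ± 8.69 (n = 4) and 73.5 ± 18.9 (n = 4). The graft difference over the members had a median of 0.18 log2 (0.06 to 0.30) in the low range and 0.55 (0.33 to 0.76) in the high one. With 4 against 4 muscles the smallest two-sided exact p is 0.0286, so a single member could not have passed over the 20 tests made (lowest adjusted p = 0.19, exact permutation test). Whether the ranges differ in the graft difference was not tested.

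Averaged over the 4 days, 0 of 10 members were called (0.0265% of all genes), since no member's log2 difference exceeded 0.41. All 10 differences were above 0, from 0.22 for P4ha1 to 0.41 for Lox, beside a median of 0.12 over all genes. At an adjusted p under 0.05 with no limit on the fold, 6 members were higher in grafted muscle (Lox, Loxl2, Loxl3, Plod1, Plod2 and P4ha1, Plod2 with the lowest adjusted p = 0.0177, limma), against 27.1% of all genes. With size factors the differences were 0.12 to 0.30, the median of all genes was 0.02, and the adjusted p ran from 0.126 to 0.385, so these 6 did not pass. At an unadjusted p under 0.05 there were 10 of 10 members, against 45.3% of all genes. By the same criterion there were 8 of 8 macrophage and leukocyte markers, with a median difference of 0.37 log2, and 5 of 10 muscle fiber markers, with a median of -0.21 log2. Their part in the result was not tested.

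In running rats, the same average gave 0 calls (0% of all genes), 0 members at an unadjusted p under 0.05 (3.04% of all genes, limma) and log2 differences from -0.06 for Lox to 0.14 for Plod2 (interval -0.07 to 0.36 for Plod2, -0.40 to 0.29 for Lox). Of 80 tests of whether the graft difference changed with side or with running on a given day, 0 passed. The lowest unadjusted p, 0.0486, was that of Loxl1 for graft by side at 7 DPI (adjusted p = 0.431, limma). The average over days was not tested for a difference between running and non-running rats.

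**Figure D5:**
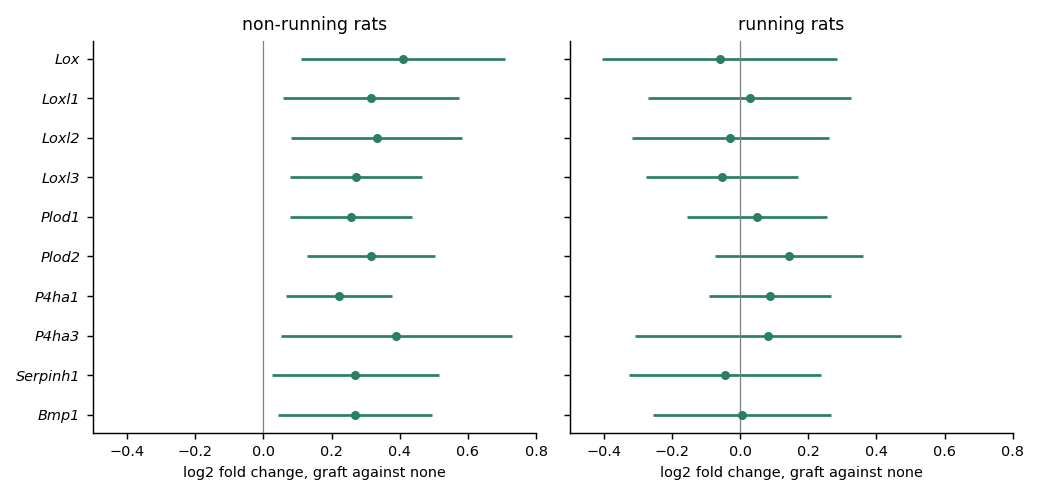
Log2 difference between grafted and non-repaired injured muscle, averaged over 4 days, for each member in non-running (left) and running (right) rats, with 95% intervals of the limma model. In non-running rats the 10 values lie between 0.22 and 0.41, in running rats between -0.06 and 0.14.

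Running was labelled for part of the rats and was compared over both repair arms of injured muscle. No member was called at 3, 7, 14 or 28 DPI (0.0177%, 0%, 0% and 0.309% of all genes) or on average (0% of all genes). Averaged differences ran from -0.15 log2 for P4ha3 (interval -0.41 to 0.11) to 0.09 for Serpinh1 (-0.09 to 0.28). At 28 DPI, where each running group had 2 muscles, Plod2 was lower by 0.49 log2 (adjusted p = 0.162, limma): the running muscles held 14, 14.4, 13 and 13.6 TPM, and the non-running ones 12.1 to 30.7 TPM over both arms. The unadjusted p was under 0.05 for 2, 1, 0 and 1 members on the 4 days (16%, 15.8%, 5.17% and 13.7% of all genes, limma): Lox (0.42 log2) and P4ha1 (0.21) at 3 DPI, Loxl3 (0.26) at 7 DPI and Plod2 at 28 DPI. On average it was so for 0 members (16.4% of all genes).

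The remaining enzymes of collagen processing gave the setting. Of 21 listed relatives and partners of the members, 19 were in the table and 17 were tested, of which 16, 16, 14 and 11 rose against control at 3, 7, 14 and 28 DPI and none fell, while 48.3%, 45.6%, 25% and 21.1% of all genes were called higher. The 2 largest at 7 DPI were Fkbp10, an endoplasmic reticulum partner of lysyl hydroxylase (5.06 log2), and Pcolce, which enhances the cut made by Bmp1 (4.66). Their median was 2.91, 2.77, 1.77 and 1.30 log2. Of 9 fibrillar collagens 8 were tested, and beside the same shares of all genes 7, 8, 8 and 7 rose, Col1a1 by 7.38 and Col3a1 by 6.74 log2 at 7 DPI.

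A list of 12 hypoxia-induced genes, fixed because Plod2 and P4ha1 are known to respond to hypoxia, moved in both directions. Against control 5, 6, 3 and 3 rose on the 4 days, shares near those of all genes (48.3%, 45.6%, 25% and 21.1%), and 1, 2, 1 and 1 fell, as did 480, 274, 62 and 24 of the 11328 genes. Slc2a1, the glucose transporter GLUT1, and Ndrg1 were higher by 2.56 and 2.55 log2 at 7 DPI, while Pfkfb3, a regulator of glycolysis, and Stc2 were lower by 2.12 and 1.13. The list's median was 0.16, 0.62, -0.14 and 0.24 log2, below the median of all genes on each day.

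Markers of fibroblasts and leukocytes rose alongside the members. All 8 fibroblast markers rose against control on every day, with a summed level of 48.8 to 177 TPM in control muscle and 2458 to 6393 TPM at 7 DPI. All 8 macrophage and leukocyte markers did so too, from 10.4 to 17.5 TPM in control muscle to 1496 to 2111 TPM at 3 DPI and 93.8 to 265 TPM at 28 DPI. Of 6 endothelial markers 4, 5, 3 and 1 rose, and of the 5 tendon and cartilage markers measured 3, 4, 3 and 1, Acan being at 0 in all control muscles. The share of all genes called higher on these days was 48.3%, 45.6%, 25% and 21.1%. In contralateral muscle at 3 DPI, where 5 members were called, the fibroblast sum was 318 and 851 TPM and the leukocyte sum 36.1 and 78 TPM. There 8 of 8 fibroblast markers, 6 of 8 macrophage and leukocyte markers, 6 of 8 fibrillar collagens, 2 of 5 tendon and cartilage markers and 0 of 6 endothelial markers were called higher than control, against 6.37% of all genes. The part of these cells in the members' levels was not tested.

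Across the means of all 31 groups, genes with the pattern most like that of each member were found by Pearson's r of log2(TPM + 1), a description over groups that share the injury. Loxl2 was followed most closely by Col5a1, Col5a2 and the prolyl 3-hydroxylase gene P3h3 (r = 0.999, 0.998 and 0.998), and Loxl1 by Thbs3, Bgn and Ppic (0.996, 0.996 and 0.995). For Bmp1 they were Cercam, Col16a1 and Col6a2 (0.998, 0.997 and 0.997). Lox had Sec24d, Kcnk6 and Ckap4 (each 0.996 to 0.997), and Serpinh1 had Prdx4, Kcnk6 and Sec24d (each 0.998). Sec24d belongs to the coat of vesicles leaving the endoplasmic reticulum, and Prdx4 is a peroxidase of that compartment. P4ha3 went with Adamts7, Marcksl1 and Clec2dl1 (0.994 to 0.995), Loxl3 with Kdelr3, Gpx8 and Rcn3 (0.994 to 0.996), Plod1 with Cttn, Shc1 and Ric8a (0.995 to 0.997) and Plod2 with Spata6, Ckap4 and Prkci (0.993). P4ha1 stood apart, with Mgat4a, Rfc2 and Tpd52 at 0.983, 0.977 and 0.971. Among the members themselves r was lowest for Loxl1 with P4ha1 (0.581) and highest for Loxl2 with Bmp1 and for Lox with Serpinh1 (both 0.995).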

How the data were processed

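RNA of TA muscle was sequenced by the authors, quantified with Kallisto (Genbank rat build 6.0) and deposited as TPM per gene symbol. TPM keeps no counts, so depth is unknown and the count test named by the study was not run. The table runs alphabetically to Tubb3. Tubb4a was incomplete, and later symbols were not analysed here. Samples were grouped by label, and 9 libraries whose labels conflict were left out. Libraries with fewer than 7000 symbols above 1 TPM were dropped and those of one muscle averaged. Dropping them left 2 assigned muscles without a library.

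Groups were compared with limma 3.58.1 (R 4.3.3, statmod 1.5.0) on log2(TPM + 1), with a trend, fitting all 114 muscles at once (83 residual degrees of freedom). The pseudocount understates the change of low genes. Ratios used two-sided exact permutation tests. Code was tested on simulated data. Tables and exact tests used scipy 1.17.1 with pandas 2.3.3 and numpy 2.4.6 under Python 3.11.15, and plots matplotlib 3.10.9.

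Members and lists were chosen with earlier results of these data known. Genes named beside the members are, per list, at most the 2 most changed at 7 DPI in each direction, and the 3 genes most like each member; Loxl4, Plod3 and P4ha2 are named as family relatives, and Acan as the marker at 0. Both muscles of a rat share the animal: their deviations from group means had a mean correlation of 0.072 over 36 pairs, against -0.009 for different rats. Muscles of one rat, including the 2 control rats, were treated as separate samples.

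Alternatives covered the pseudocount, filter, scaling, library limits, rat as a block, groups in the model, reference muscle, call rule and 88 of the 114 muscles left out in turn. Ranges of rat number were added after seeing the data.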

Additional observations from a re-analysis of the deposited data

Results flagged for a closer look

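In 160 combinations of a member and a group of 4 to 10 muscles, 21 had 1 muscle far from the rest by Dixon's criterion, which chance gives in about 1 of 20 groups (5%). The members share their muscles, so these are not independent. Many come from few muscles. Grafted, non-running muscle at 14 DPI had one high muscle in Lox (57.9 TPM), Loxl1 (126), Plod1 (49.8), P4ha3 (26.1) and Bmp1 (71.9). Grafted, non-running muscle at 3 DPI had high values of Lox (177), Plod2 (85.9) and P4ha1 (138), and grafted running muscle at 3 DPI of Lox (168), Plod2 (95.3) and Serpinh1 (1335). Non-repaired running muscle had a high Lox at 3 DPI (191), a high Loxl3 (17.8) and Plod1 (102) at 7 DPI, and a low Loxl1 (45.3) and Serpinh1 (172) at 14 DPI. Non-repaired, non-running muscle at 14 DPI had a high Serpinh1 (301). In control muscle, low values were those of Loxl2 (0.21), Plod1 (6.76) and Plod2 (3.61), all in replicate 4, and P4ha3 was high at 0.19 where the others were listed at 0.

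Of the 9 libraries left out of all groups, 8 are of running rats at 28 DPI and have a title that names one muscle and a label that names the other. The 4 labelled injured but titled as the other muscle had 9 of 10 members above the highest control muscle, as were 62.4% to 71.3% of all tested genes, with Lox at 8.59, 11.4, 7.99 and 18.8 TPM. The 4 labelled uninjured had 6, 4, 2 and 6 members above it, beside 35%, 29.1%, 16% and 27.8% of all genes, and Lox at 0.97, 0.9, 1.3 and 1.03 TPM.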

How the results depend on the processing

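Depth is unknown for TPM, and small groups limit the ratio tests. The rat as a replicate block left every count of called members as it was, for example 10 of 10 at 3 DPI against control. Counts for injured against control, injured and grafted against contralateral and running against non-running muscle stayed within 1.5 times under every alternative. For contralateral against control, the count went from 5 at 3 DPI to 1 with all libraries kept, 0 with only the compared groups in the model and 8 with adjusted p alone (1 to 6 with a muscle left out); from 0 at 7 DPI to 3 with a pseudocount of 0.1, 2 with size factors, 1 with both arms' contralateral muscles and 2 with adjusted p alone (0 to 1); from 1 at 14 DPI to 3 with a pseudocount of 0.1 and to 0 with no filter, all libraries, a limit of 5000 symbols, only the compared groups or control muscles averaged per rat (0 to 1); and from 0 at 28 DPI to 2 with a pseudocount of 0.1. Adjusted p alone gave 4 members for 7 against 3 DPI, 9 for 14 against 7 DPI, and for the graft 2 at 7 DPI and 6 averaged. For 14 against 7 DPI the count was 5 with a pseudocount of 0.1 and 0 with size factors or all libraries (2 to 6 with a muscle left out); for 28 against 14 DPI it was 1 and, with all libraries, 0 (0 to 4). With the 7 DPI muscles of one range of rat number alone, chosen after seeing the data, it was 2 for 7 against 3 DPI (low numbers) and 0 for 14 against 7 DPI (high numbers). P4ha1 against control changed sign with size factors at 7 DPI (-0.228) and 14 DPI (-0.439), and near 0 with a muscle left out (-0.004 and 0 at 14 DPI, 0.015 at 28 DPI). With a pseudocount of 0.1 TPM, ratios lost their call at 14 and 28 DPI for Plod2 to Plod1 (0.669, 0.632), P4ha3 to P4ha1 (6.21, 4.57) and Serpinh1 to Col1a1 (-3.09, -2.78), each at adjusted p = 0.0636 by exact permutation. Lox to Loxl1 became 1.365, 0.42, 0.102 and -0.003 at 3, 7, 14 and 28 DPI, and Lox to Col1a1 0.647, -0.479, -0.472 and -0.52. Contralateral muscle as reference was run at a pseudocount of 1 TPM only. With it, Lox to Loxl1 at 7 DPI passed (-0.352), and at 3 DPI Lox to Col1a1 (0.779) and Serpinh1 to Col1a1 (0.106) changed sign. With a muscle left out, ratios kept their sign at 7, 14 and 28 DPI, over -0.406 to -0.23, -0.71 to -0.533 and -0.78 to -0.603 for Lox to Loxl1; -2.05 to -1.93, -2.03 to -1.90 and -2.03 to -1.90 for Lox to Col1a1; 3.93 to 4.08, 3.2 to 3.42 and 1.74 to 2.21 for P4ha3 to P4ha1; 0.872 to 0.946, 0.467 to 0.631 and 0.416 to 0.612 for Plod2 to Plod1; and -3.01 to -2.92, -3.11 to -3.02 and -2.87 to -2.61 for Serpinh1 to Col1a1. Of these, every call at 14 and 28 DPI was lost with any one muscle left out (adjusted p = 0.0601 to 0.0816), where 3 against 4 muscles allow no p below 0.0571. At 7 DPI the calls of Plod2 to Plod1, P4ha3 to P4ha1, Lox to Col1a1 and Serpinh1 to Col1a1 were lost without any one control muscle, at the smallest p that 8 against 3 muscles allow, 0.0121 (adjusted p = 0.0605 by exact permutation), and Lox to Loxl1 passed without injured replicate 4 (adjusted p = 0.0381). Muscles of 2 running injured groups at 3 DPI, and the 12 contralateral muscles of running rats, which enter no comparison, were not left out in turn.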

Other observations

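The library set aside because its day differs from that of the other libraries of its rat is labelled uninjured, non-repaired, 3 DPI, and held 4.18 TPM of Lox, 5.66 of Loxl1 and 55.1 of Serpinh1. These 3 and Loxl2, Loxl3 and Bmp1, 6 of the 10 members, lay within the range of the 2 non-repaired, non-running contralateral muscles kept for that day. The other 4 lay outside it: Plod1 at 14.5 TPM (20.9 to 21.4 in the 2 muscles), Plod2 at 5.4 (6.65 to 8.19), P4ha1 at 27.2 (40.7 to 42.6) and P4ha3 at 0.32 (0.19 to 0.24). The other 8 conflicting libraries held 26.5 to 35.9 TPM of Serpinh1 where labelled uninjured and 93.6 to 176 TPM where labelled injured. P4ha1 spanned 27.5 to 28.7 TPM in the first and 22.1 to 30.5 TPM in the second.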
